A study of Mus musculus with 8 samples.

Results

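The 34 genes described here make sterols and fatty acids or govern that synthesis, and are known as targets or regulators of the SREBP transcription factors. They were taken from a list of mouse gene symbols, and each of the 34 matched 1 Ensembl gene of the 55416 in the table. The list holds 20 genes of the sterol arm, from acetyl-CoA to cholesterol and its transfer protein Stard4, 10 genes of the fatty acid arm, from cytosolic acetyl-CoA to elongated and desaturated fatty acids, and 4 regulators (Srebf1, Srebf2, Insig1 and Insig2). All 34 passed the filter on low counts that left 14063 genes to test. Their RNA was measured in small-intestinal organoids, which are epithelial cultures grown from crypts, here of C57BL/6 mice aged 4 to 8 weeks. The 4 groups were irradiated organoids at day 7 (6 Gy, X-rays), controls without X-rays at day 7, irradiated organoids at day 4 (6 Gy) and controls at day 4, with 2 libraries each. All 4 groups, controls included, carried Rosa26-rtTA Tg/Tg together with Col1A1-TetO-OSKM Tg/Tg, a transgene for reprogramming factors that doxycycline can switch on, and the labels record no such induction. The labels give neither the start of the day count nor separate animals or cultures for the replicates, so p-values measure only the spread between these libraries.

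Cells sense sterols in the membrane of the endoplasmic reticulum. When sterols are scarce, the escort protein Scap carries the SREBP precursors, encoded by Srebf1 and Srebf2, to the Golgi, where proteases release the part that enters the nucleus and switches on genes of lipid synthesis. Insig1 and Insig2 hold the complex back when sterols are plentiful. Srebf2 is best known for the sterol genes and Srebf1 for the fatty acid genes. In the intestine, dividing crypt cells need new membrane lipid, while absorptive enterocytes also take up, esterify and export dietary lipid.

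Expected counts totalled 7541764 to 16054269 per library, so that 1 count stood for 0.0623 to 0.133 CPM (counts scaled to a common library size), and mitochondrial transcripts took 12.9% to 27.6%. The epithelial markers (Epcam, Cdh1, Vil1, Krt8, Krt18, Cldn7, Elf3) summed to 3646 to 5788 CPM in each library, the mesenchymal markers to 1.75 to 3.05 CPM and the immune markers to 0.0610 to 2.04 CPM, and Adgre1, Cdh5, Kdr, Adipoq and Lep were at 0 in all 8 libraries. Replicates of a group were closer to each other at day 7 than at day 4. Their coefficient of variation beyond counting error was 0.0410 in irradiated and 0.0470 in control organoids at day 7, and 0.173 in irradiated and 0.136 in control organoids at day 4. Of the control libraries at day 4, replicate 1 stood apart from replicate 2 in the sterol genes, whose summed level was 4111 CPM in replicate 1 and 2887 CPM in replicate 2. Calls that rest on this library are given with and without it.

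Levels between genes were compared in TPM (transcript abundance scaled to a common total), which takes gene length into account. Averaged over the 8 libraries, the desaturase Scd2 had the highest level of the 34, at 444 TPM. It was followed by Hmgcs1, which makes HMG-CoA at the head of the mevalonate pathway, at 216 TPM, by the farnesyl diphosphate synthase Fdps at 198 TPM, by the isopentenyl diphosphate isomerase Idi1 at 160 TPM and by the second desaturase Scd1 at 157 TPM. Lowest were the acetyl-CoA carboxylase Acaca at 16.8 TPM and the geranylgeranyl diphosphate synthase Ggps1 at 15.9 TPM. Srebf1 averaged 83.3 TPM and Srebf2 62.3 TPM, while Insig1 averaged 140 TPM and Insig2 21.04 TPM. The 34 genes lie on 15 chromosomes. Fads1 and Fads2 are neighbours on chromosome 19 with 0 protein-coding genes between them in RefSeq, and Scd1 and Scd2 lie on the same chromosome with 1 gene between them.

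SREBP proteins act at promoters together with the factors NF-Y and Sp1, so the promoters of the genes are shown here to set the arms beside each other. RefSeq promoter windows of build GRCm38.p6 were found for 27 of the 34 genes. Windows were missing for Fads1, Scd1 and Scd2 of the fatty acid arm and for Fdft1, Fdps, Sqle and Stard4 of the sterol arm. The 250 bases before each start were searched on both strands for the letters TCACNCCAC (a sterol response element), CCAAT (the NF-Y motif), CACGTG (an E-box) and GGGCGG (a GC box). Where a gene has several starts, it counts if any window holds the letters. TCACNCCAC was in 1 of the 27 windows, that of Hmgcs1, 128 bases before the start, and in 1.22% of all 27025 promoters. CCAAT was in 15 of 16 windows of the sterol arm (93.8%), in 3 of 7 of the fatty acid arm (42.9%) and in 4 of 4 of the regulators, against 41.1% of the 9990 tested genes with a window and 37.5% of all promoters. CACGTG was in 5 of 27 (18.5%) against 9.92% of tested genes and 6.86% of all promoters, and GGGCGG in 21 of 27 (77.8%) against 63.2% and 35.4%. The letters describe these windows and are not evidence of binding. In the windows below, capitals mark TCACNCCAC, CCAAT in either orientation and CACGTG. Hmgcs1 is shown because it alone holds TCACNCCAC. Lss and Elovl5 were chosen after the windows were seen, as genes of either arm whose windows hold CCAAT, and Fads2 as one whose window holds none of the 3 marked motifs.
Hmgcs1, chr13:119690101-119690350, plus strand: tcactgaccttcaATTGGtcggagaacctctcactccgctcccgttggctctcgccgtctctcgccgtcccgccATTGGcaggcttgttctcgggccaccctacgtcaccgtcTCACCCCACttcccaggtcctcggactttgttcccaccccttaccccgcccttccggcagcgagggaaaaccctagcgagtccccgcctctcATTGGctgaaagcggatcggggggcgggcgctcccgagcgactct
Lss, chr10:76531355-76531604, plus strand: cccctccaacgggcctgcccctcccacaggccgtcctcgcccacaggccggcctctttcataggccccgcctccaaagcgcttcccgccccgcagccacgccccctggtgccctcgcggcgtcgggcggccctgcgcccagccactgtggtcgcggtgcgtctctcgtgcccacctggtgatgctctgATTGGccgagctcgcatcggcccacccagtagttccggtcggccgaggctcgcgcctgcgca
Elovl5, chr9:77917115-77917364, plus strand: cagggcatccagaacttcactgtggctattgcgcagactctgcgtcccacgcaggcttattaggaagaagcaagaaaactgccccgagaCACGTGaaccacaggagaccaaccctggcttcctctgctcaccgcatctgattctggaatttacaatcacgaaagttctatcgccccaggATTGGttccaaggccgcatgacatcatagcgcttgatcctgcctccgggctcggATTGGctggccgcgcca
Fads2, chr19:10101504-10101753, minus strand: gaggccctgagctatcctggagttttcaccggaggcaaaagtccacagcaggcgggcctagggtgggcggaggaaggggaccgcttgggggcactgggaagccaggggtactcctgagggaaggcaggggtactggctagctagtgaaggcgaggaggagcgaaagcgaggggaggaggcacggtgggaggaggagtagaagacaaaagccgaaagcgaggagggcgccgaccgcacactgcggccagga

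At day 4, irradiated organoids had less RNA of most fatty acid genes than controls. Of the 10 genes of this arm, 7 fell and 1 rose at an adjusted p under 0.05 (edgeR's quasi-likelihood test, Benjamini-Hochberg adjustment over 14063 genes), against a background of 36.5% of all tested genes called, 20.0% higher and 16.5% lower. The arm's median log2 fold change was -0.69, beside 0.00 for all tested genes. The largest falls were in the desaturases Fads1, Scd2 and Fads2. In bulk RNA, fewer cells of a type and less RNA per cell cannot be told apart.

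Fads1, a desaturase of polyunsaturated fatty acids, was measured at 113 and 93.5 CPM in the day 4 irradiated libraries, against 348 and 330 CPM in their controls. Both irradiated libraries lay far below both controls. Its log2 fold change was -1.72 ± 0.10 (SE, n = 2 per group, 95% interval -1.94 to -1.50, edgeR adjusted p = 2.02e-06). Scd2, which places a double bond in saturated fatty acids, was measured at 906 and 1117 CPM in irradiated organoids and at 2724 and 2557 CPM in controls, a log2 fold change of -1.38 ± 0.12 (adjusted p = 1.98e-05). Fads2, which acts before Fads1 in the same chain of desaturation, was measured at 170 and 141 CPM in irradiated organoids and at 360 and 285 CPM in controls (log2 fold change -1.05 ± 0.12, adjusted p = 0.000159). In all 3 genes the groups were apart by more than the spread of either pair. The elongase of polyunsaturated fatty acids Elovl5 fell with a log2 fold change of -0.70, the fatty acid synthase Fasn with -0.68, Acly, which makes cytosolic acetyl-CoA from citrate, with -0.61, and Acaca, which makes malonyl-CoA, with -0.50 (edgeR adjusted p from 0.000207 to 0.00214). Fasn, which builds palmitate, was measured at 298 and 247 CPM in irradiated organoids and at 462 and 410 CPM in controls. Elovl5 was measured at 67.6 and 65.8 CPM in irradiated organoids and at 108 and 109 CPM in controls. The 7 falls held in each of the 8 fits that left out 1 library and under every other alternative.

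Me1, the cytosolic malic enzyme that supplies NADPH, went the other way. It was measured at 42.9 and 58.4 CPM in irradiated organoids at day 4, against 29.5 and 34.6 CPM in controls, and rose with a log2 fold change of 0.66 ± 0.15 (edgeR adjusted p = 0.00588). On deposited TPM (limma on log2(TPM + 1)), its change was 0.53 with an adjusted p of 0.0582. The remaining 2 genes were not called. Scd1, the second stearoyl-CoA desaturase, was measured at 289 and 611 CPM in irradiated organoids and at 836 and 694 CPM in controls, and its 2 irradiated libraries differed so widely that the interval of the log2 fold change ran from -1.63 to 0.10. Without irradiated replicate 1 at day 4, the log2 fold change of Scd1 was -0.34, and without replicate 2 it was -1.41. Each of these fits left 1 irradiated library at day 4, so the gap between the 2 did not enter its test. Elovl6, which elongates saturated fatty acids, had a log2 fold change of -0.24 (interval -0.50 to 0.02).

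**Figure D1:**
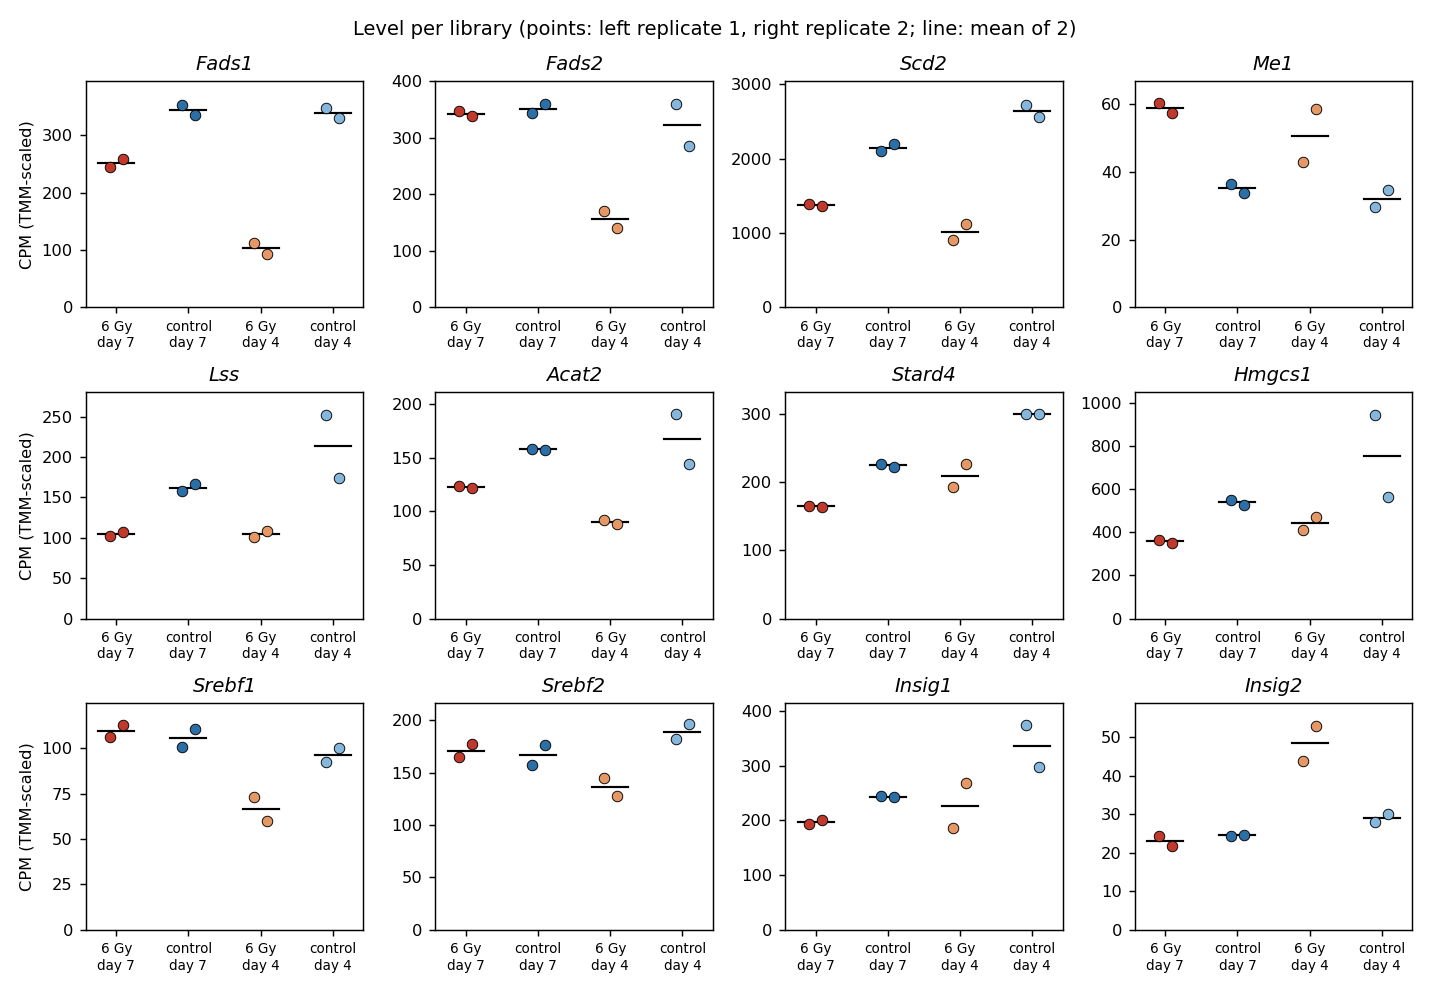
Level of 12 of the genes in each of the 8 libraries (y axis: CPM, TMM-scaled, starting at 0; x axis: group; left point replicate 1, right point replicate 2, line the mean of 2). In Fads1, Fads2 and Scd2 the irradiated libraries at day 4 are the lowest of all, Me1 and Insig2 run against them, and control replicate 1 at day 4 stands above replicate 2 in Lss, Acat2 and Hmgcs1.

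In the sterol arm at day 4, 11 of the 20 genes fell in irradiated organoids and 0 rose. Of all tested genes, 16.5% were called lower and 20.0% higher. The median log2 fold change of the arm was -0.48, beside 0.00 for all tested genes. The falls ran through the pathway, from Acat2 and Hmgcs1 at its head through Pmvk, Mvd, Idi1, Fdps, Sqle and Lss to Nsdhl, Dhcr7 and the transfer protein Stard4. Without control replicate 1 at day 4 the median was -0.21, and without control replicate 2 it was -0.58. Acat2, which joins acetyl-CoA units in the cytosol, was measured at 91.9 and 88.4 CPM in irradiated organoids and at 191 and 145 CPM in controls (log2 fold change -0.89 ± 0.12, edgeR adjusted p = 0.000283). Lss, the cyclase that forms lanosterol, was measured at 101 and 108 CPM in irradiated organoids and at 252 and 174 CPM in controls (log2 fold change -1.03 ± 0.15, adjusted p = 0.0011). Control replicate 1 was the higher of the controls in both genes, and both groups were still apart. Stard4, which carries cholesterol between membranes, was measured at 193 and 226 CPM in irradiated organoids and at 300.0 and 300.4 CPM in controls (log2 fold change -0.52 ± 0.09, adjusted p = 0.00118). These 3 calls and that of Fdps, whose log2 fold change was -0.53 (adjusted p = 0.0033), held in every fit that left out a library and under every alternative.

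Other sterol calls at day 4 were less stable. Hmgcs1 was measured at 413 and 471 CPM in irradiated organoids and at 943 and 564 CPM in controls (log2 fold change -0.77 ± 0.22, edgeR adjusted p = 0.0325). Its call was lost without either irradiated library at day 4 (adjusted p = 0.24 without replicate 1 and 0.175 without replicate 2). Without control replicate 1 at day 4, the calls of Pmvk, Mvd, Idi1, Sqle and Nsdhl were lost. Their log2 fold changes were then -0.48 for Pmvk, -0.25 for Mvd, -0.29 for Idi1, -0.20 for Sqle and -0.21 for Nsdhl, against -0.54, -0.55, -0.62, -0.47 and -0.51 with all libraries. The calls of Mvd and Nsdhl were also lost without either irradiated library at day 4 or any library of day 7. Idi1 and Sqle lost their calls without either irradiated library at day 4 and without irradiated replicate 1 at day 7, and Sqle also without irradiated replicate 2 or control replicate 2 at day 7. The sterol reductase Dhcr7, at the end of the pathway, kept its call in each of these fits (log2 fold change -0.40, adjusted p = 0.00824). In a fit of only the day 4 libraries, 2 of the 34 genes were higher and 13 lower, beside 23.3% of all genes called in that fit (13.6% higher, 9.76% lower), and Hmgcs1, Pmvk, Mvd, Idi1, Sqle, Nsdhl, Dhcr7 and Insig1 were not among them.

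The 9 sterol genes that were not called lay between log2 fold changes of -0.48 (Fdft1, squalene synthase) and 0.35 (Mvk, mevalonate kinase). Most of the steps after lanosterol were among them: Cyp51 had -0.27, Msmo1 -0.22, Ebp -0.11 and Tm7sf2 -0.03. Ggps1, on the side branch to geranylgeranyl groups, had -0.11. In 3 genes the estimate was above 0. Mvk was measured at 27.1 and 23.6 CPM in irradiated organoids and at 24.1 and 15.9 CPM in controls. Hsd17b7, a reductase of the demethylation steps, was measured at 75.4 and 74.1 CPM in irradiated organoids and at 72.5 and 45.7 CPM in controls. Sc5d, the sterol desaturase, was measured at 99.8 and 147 CPM in irradiated organoids and at 145 and 93.6 CPM in controls. The groups overlapped in Mvk and Sc5d, and those of Hsd17b7 were apart by a small margin. Without control replicate 1 at day 4, the log2 fold changes were 0.65 for Mvk and 0.69 for Hsd17b7. Without control replicate 2 at day 4, they were -0.79 for Fdft1, -0.54 for Cyp51, -0.43 for Msmo1 and -0.44 for Elovl6 of the fatty acid arm. These fits left 1 control library at day 4. Exons of Cyp51, Fdft1, Ggps1 and Srebf1 overlap exons of the expressed genes Akap9, Ctsb, Arid4b and Rai1 on the opposite strand in GENCODE M21, those of Hmgcs1 overlap Gm48342 on the opposite strand, and those of Tm7sf2 overlap Vps51 on the same strand, so their reads may be shared. Deposited counts of Scd2, Acaca, Acat2, Cyp51, Elovl6, Fdft1, Fdps, Hmgcs1, Idi1 and Me1 were whole numbers (within 0.001) in 0 of 8 libraries. Those of Scd1 and Insig1 were whole in 1 of 8, and those of Lss in 3. For Srebf1 it was 6 of 8, for Ggps1 and Tm7sf2 it was 7, and for the other genes it was all 8.

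Compared library by library, 23 of the 34 genes were lower in both irradiated libraries than in both controls at day 4 and 3 were higher, beside 31.8% and 33.4% of all tested genes. Of the regulators, edgeR called 3 of 4 lower and 1 higher, beside 16.5% of all tested genes called lower and 20.0% higher. Srebf1 was measured at 73.0 and 60.1 CPM in irradiated organoids and at 92.5 and 100.2 CPM in controls (log2 fold change -0.53 ± 0.11, edgeR adjusted p = 0.00312). Srebf2 was measured at 145 and 128 CPM in irradiated organoids and at 182 and 197 CPM in controls (log2 fold change -0.47 ± 0.09, adjusted p = 0.0032). Both calls held under all alternatives. Insig1, itself a target of SREBP, was measured at 186 and 268 CPM in irradiated organoids and at 374 and 298 CPM in controls (log2 fold change -0.57 ± 0.17, adjusted p = 0.0329), and its call was lost without control replicate 1 at day 4, without irradiated replicate 1 at day 4 and without any library of day 7 (adjusted p from 0.0527 to 0.163). Insig2, the second retention protein, rose: it was measured at 43.9 and 52.9 CPM in irradiated organoids and at 27.9 and 30.1 CPM in controls (log2 fold change 0.74 ± 0.12, adjusted p = 0.00119). On log2(TPM + 1) its change was 0.61 with an adjusted p of 0.0609.

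**Figure D2:**
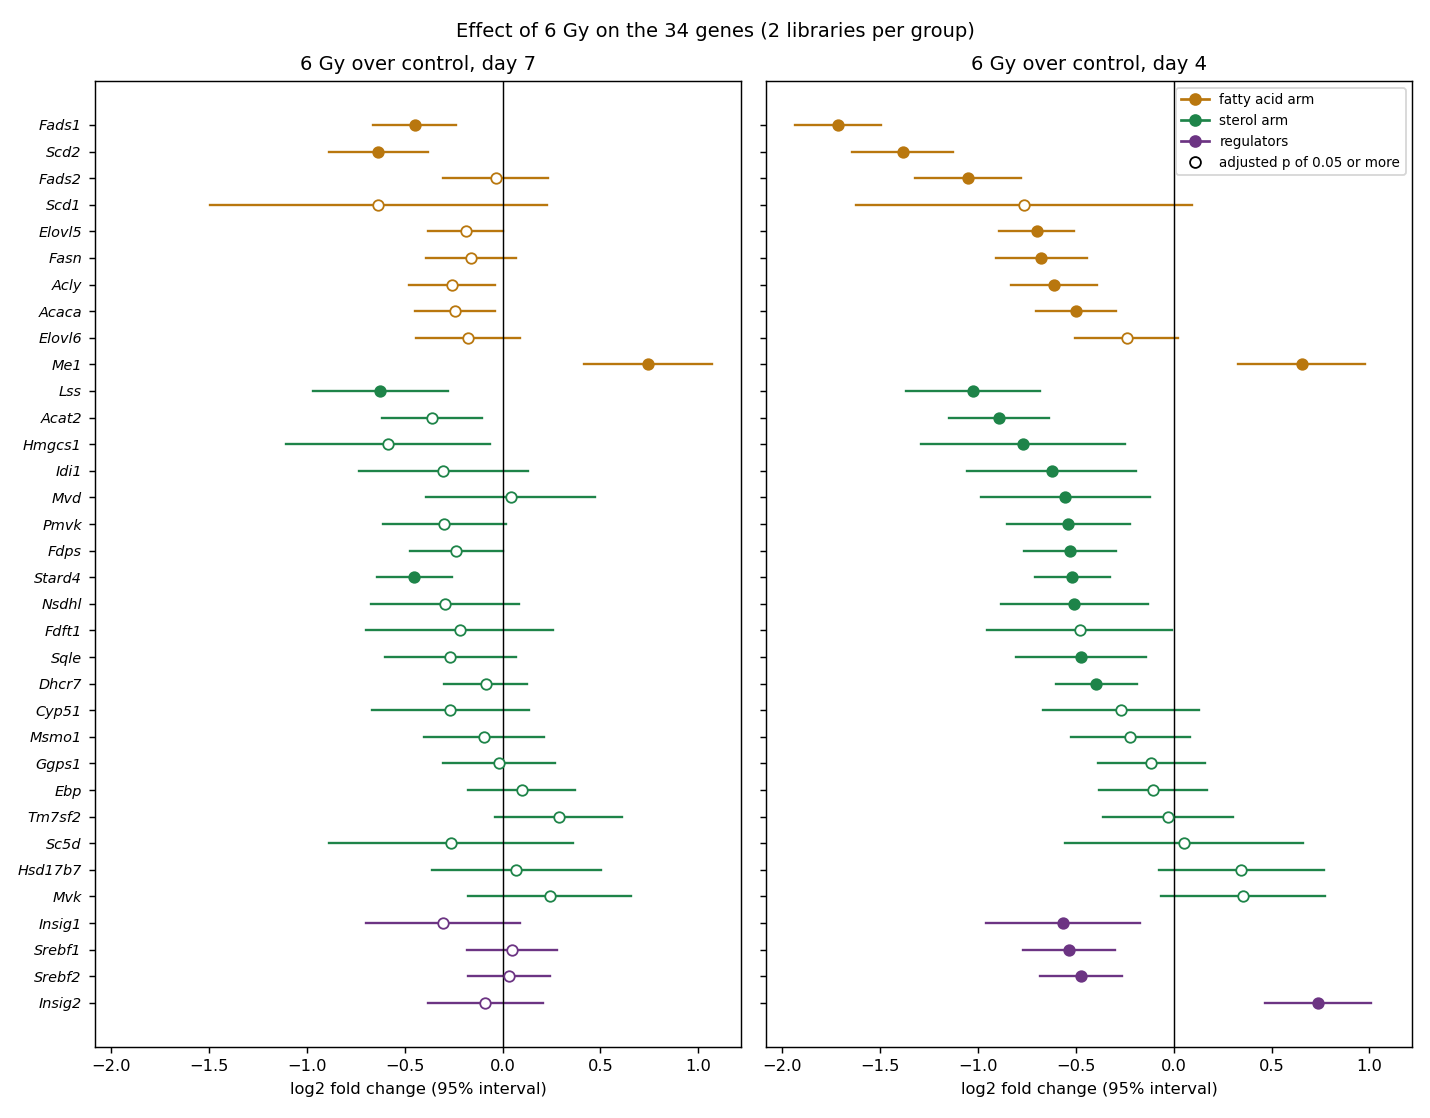
Log2 fold change of irradiated over control organoids for the 34 genes (x axis; left panel day 7, right panel day 4; points with 95% intervals, filled where the adjusted p is under 0.05, coloured by arm). At day 4, 21 genes lie below 0 and 2 above 0 with filled points, and at day 7 these numbers are 4 and 1.

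Cell type and cell cycle markers differed at day 4 as well, beside 20.0% of all tested genes called higher and 16.5% lower. The 12 mitosis genes summed to 1390 and 1126 CPM in irradiated organoids against 2509 and 2363 CPM in controls, and 11 of the 12 fell. The sum of the 10 enterocyte markers was 8367 and 12760 CPM in irradiated organoids against 2232 and 1907 CPM in controls, and 10 of 10 rose. For the 4 Paneth markers it was 2158 and 3250 CPM in irradiated organoids against 600 and 497 CPM in controls, and 4 of 4 rose. For the 4 goblet markers it was 1678 and 1974 CPM in irradiated organoids against 2094 and 1766 CPM in controls. Single goblet markers differed more than their sum, as 2 rose (log2 fold change up to 3.95) and 1 fell. Mitochondrial transcripts took 20.3% and 27.6% of the counts in irradiated organoids and 20.7% and 16.2% in controls. The part of these shifts in the lipid genes was not tested. Without mitochondrial genes in the library sizes, 23 of the 34 genes were called at day 4. Of these, 2 were higher and 21 lower, the same numbers as with mitochondrial genes. Among adipocyte markers, Adipoq and Lep were at 0 and Plin1 had at most 4 counts in a library, while Cidec, of lipid droplets, had 160 and 191 counts in irradiated organoids against 37 and 66 in controls.

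At day 7 fewer of the genes passed the test. Of the 34 genes, 4 fell (Scd2, Fads1, Lss and Stard4) and 1 rose (Me1), beside 8.65% of all tested genes called, 4.70% higher and 3.95% lower. The median log2 fold change was -0.25 in the sterol arm and -0.22 in the fatty acid arm, beside 0.00 for all genes. Scd2 was measured at 1393 and 1368 CPM in irradiated organoids and at 2095 and 2188 CPM in controls (log2 fold change -0.63 ± 0.12, edgeR adjusted p = 0.0102). Fads1 was measured at 245 and 258 CPM in irradiated organoids and at 352 and 336 CPM in controls (log2 fold change -0.45 ± 0.10, adjusted p = 0.0193). Lss was measured at 103 and 107 CPM in irradiated organoids and at 158 and 166 CPM in controls (log2 fold change -0.62 ± 0.15, adjusted p = 0.0406). Replicates at day 7 lay close together and the groups were well apart in these genes. Stard4 was measured at 165 and 164 CPM in irradiated organoids and at 227 and 223 CPM in controls (log2 fold change -0.45 ± 0.09, adjusted p = 0.0135). Me1 was measured at 60.2 and 57.3 CPM in irradiated organoids and at 36.5 and 33.7 CPM in controls (log2 fold change 0.74 ± 0.15, adjusted p = 0.015). Acat2, at 124 and 122 CPM in irradiated organoids and 158 and 157 CPM in controls, did not pass (log2 fold change -0.36 ± 0.12, adjusted p = 0.0791). Scd1 was at 424 and 406 CPM in irradiated organoids and 625 and 662 CPM in controls (-0.63 ± 0.34, adjusted p = 0.319). Hmgcs1 was at 366 and 352 CPM in irradiated organoids and 552 and 525 CPM in controls (-0.585 ± 0.22, adjusted p = 0.153). Neither was called in the fit of all libraries, and both were called lower in a fit of only the day 7 libraries.

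The day 7 calls depend on how the spread is estimated. All 8 libraries shared 1 estimate, to which the wider replicates of day 4 contributed. In a fit of only the day 7 libraries, 2 of the 34 genes were higher and 21 lower, beside 36.3% of all genes called in that fit (18.8% higher, 17.5% lower). Without any one of the 4 day 7 libraries, edgeR called 0 of the 34, with 5 to 7 at an unadjusted p under 0.05, and 105 to 165 of all genes, while without control replicate 1 or 2 at day 4 the number of the 34 called was 10 or 8. By the libraries themselves, 24 of the 34 genes were lower in both irradiated libraries than in both controls at day 7 and 4 were higher, beside 32.6% and 33.3% of all tested genes. On log2(TPM + 1), limma called 0 of the 34 at day 7, with 6 at an unadjusted p under 0.05, beside 2.69% of all genes. DESeq2 called 6.

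In the fit of all 8 libraries, edgeR called 0 of the 4 regulators at day 7, with 0 at an unadjusted p under 0.05, and DESeq2 also called 0. Srebf1 was measured at 106 and 113 CPM in irradiated organoids and at 101 and 111 CPM in controls, and Srebf2 at 165 and 178 CPM in irradiated organoids and at 158 and 176 CPM in controls. The intervals of their log2 fold changes ran from -0.18 to 0.28 for Srebf1 and from -0.17 to 0.24 for Srebf2. Insig1 was measured at 194 and 200.3 CPM in irradiated organoids and at 245 and 242 CPM in controls, with both irradiated libraries below both controls. Its log2 fold change was -0.31 (interval -0.70 to 0.09), and the fit of only the day 7 libraries called it (-0.31, edgeR adjusted p = 6.63e-07). Insig2 had -0.09 (interval -0.38 to 0.21). Fads2, with a fall at day 4, was measured at 347 and 338 CPM in irradiated organoids and at 343 and 359 CPM in controls at day 7, and its interval ran from -0.30 to 0.23. Of the sterol genes, 5 had estimates above 0 at day 7 and were not called: Tm7sf2 (0.29), Mvk (0.24), Ebp (0.10), Hsd17b7 (0.07) and Mvd (0.04). Tm7sf2 was measured at 27.5 and 29.4 CPM in irradiated organoids and at 23.7 and 22.8 CPM in controls, and Ebp, a sterol isomerase, at 44.4 and 48.7 CPM in irradiated organoids and at 43.9 and 43.1 CPM in controls. Of these 5 genes, 3 (Tm7sf2, Mvk and Ebp) had both irradiated libraries above both controls. Cell type markers also differed at day 7. Mitosis genes summed to 2015 and 1989 CPM in irradiated organoids against 2271 and 2237 CPM in controls. This fall was not shared by the list. Of the 12 mitosis genes, 1 was called lower and 0 higher. Their estimates lay above 0 in 7 and below 0 in 5, with a median log2 fold change of 0.03. Enterocyte markers came to 3173 and 3225 CPM with irradiation and to 1992 and 2006 CPM without. Of these 10 markers, 4 were called higher, and all 10 estimates lay above 0. The sum of the goblet markers was 784 and 831 CPM in irradiated organoids against 1172 and 1231 CPM in controls. Single goblet markers were split: of 4, 1 was called higher (log2 fold change 2.78) and 1 lower. The sum of the Paneth markers was 860 and 883 CPM in irradiated organoids against 1101 and 1078 CPM in controls. Of these 4, 0 were called, with 2 estimates above and 2 below 0. The part of all these markers in the lipid genes was not tested.

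Whether the effect of irradiation differed between the days was tested directly, as the log2 effect at day 7 less that at day 4. It differed for 7 of the 34 genes, 6 with a positive and 1 with a negative difference, beside 10.1% of all tested genes called, 4.60% positive and 5.51% negative. In the fatty acid arm 4 of 10 genes were called. In the sterol arm edgeR called 0 of 20, with 2 at an unadjusted p under 0.05, and DESeq2 also called 0. Without control replicate 2 at day 4, 6 sterol genes were called, and without control replicate 1, 1 was. The median difference was 0.43 in the fatty acid arm and 0.21 in the sterol arm, beside -0.04 for all genes; no test compared the arms. Fads1 had the largest difference, 1.27 ± 0.14 (edgeR adjusted p = 0.00107), with effects of -0.45 at day 7 and -1.72 at day 4. Fads2 followed with 1.01 ± 0.17 (adjusted p = 0.00783), Scd2 with 0.75 ± 0.16 (adjusted p = 0.0192) and Elovl5 with 0.51 ± 0.12 (adjusted p = 0.0287). Among the regulators, Srebf1 had a difference of 0.58 ± 0.15 (adjusted p = 0.0351), Srebf2 of 0.51 ± 0.13 (adjusted p = 0.0381) and Insig2 of -0.83 ± 0.18 (adjusted p = 0.0201). The call of Fads1 held in all fits that left out a library. Those of Elovl5, Scd2, Srebf1, Srebf2 and Insig2 were lost without any one of the 4 day 7 libraries, and those of Elovl5, Srebf1 and Srebf2 also without control replicate 2 at day 4. On log2(TPM + 1) those of Elovl5, Srebf1, Srebf2 and Insig2 were lost. That of Fads2 was lost without control replicate 1 at day 7 (adjusted p = 0.0518). Without a day 7 library 1 or 2 of the 34 genes were called, and without control replicate 2 at day 4 it was 11. In the sterol arm the differences closest to the threshold were those of Acat2, 0.53 ± 0.16 (adjusted p = 0.0651), and Dhcr7, 0.31 ± 0.13 (adjusted p = 0.165). For Lss the interval ran from -0.08 to 0.89 and for Stard4 from -0.20 to 0.34.

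**Figure D3:**
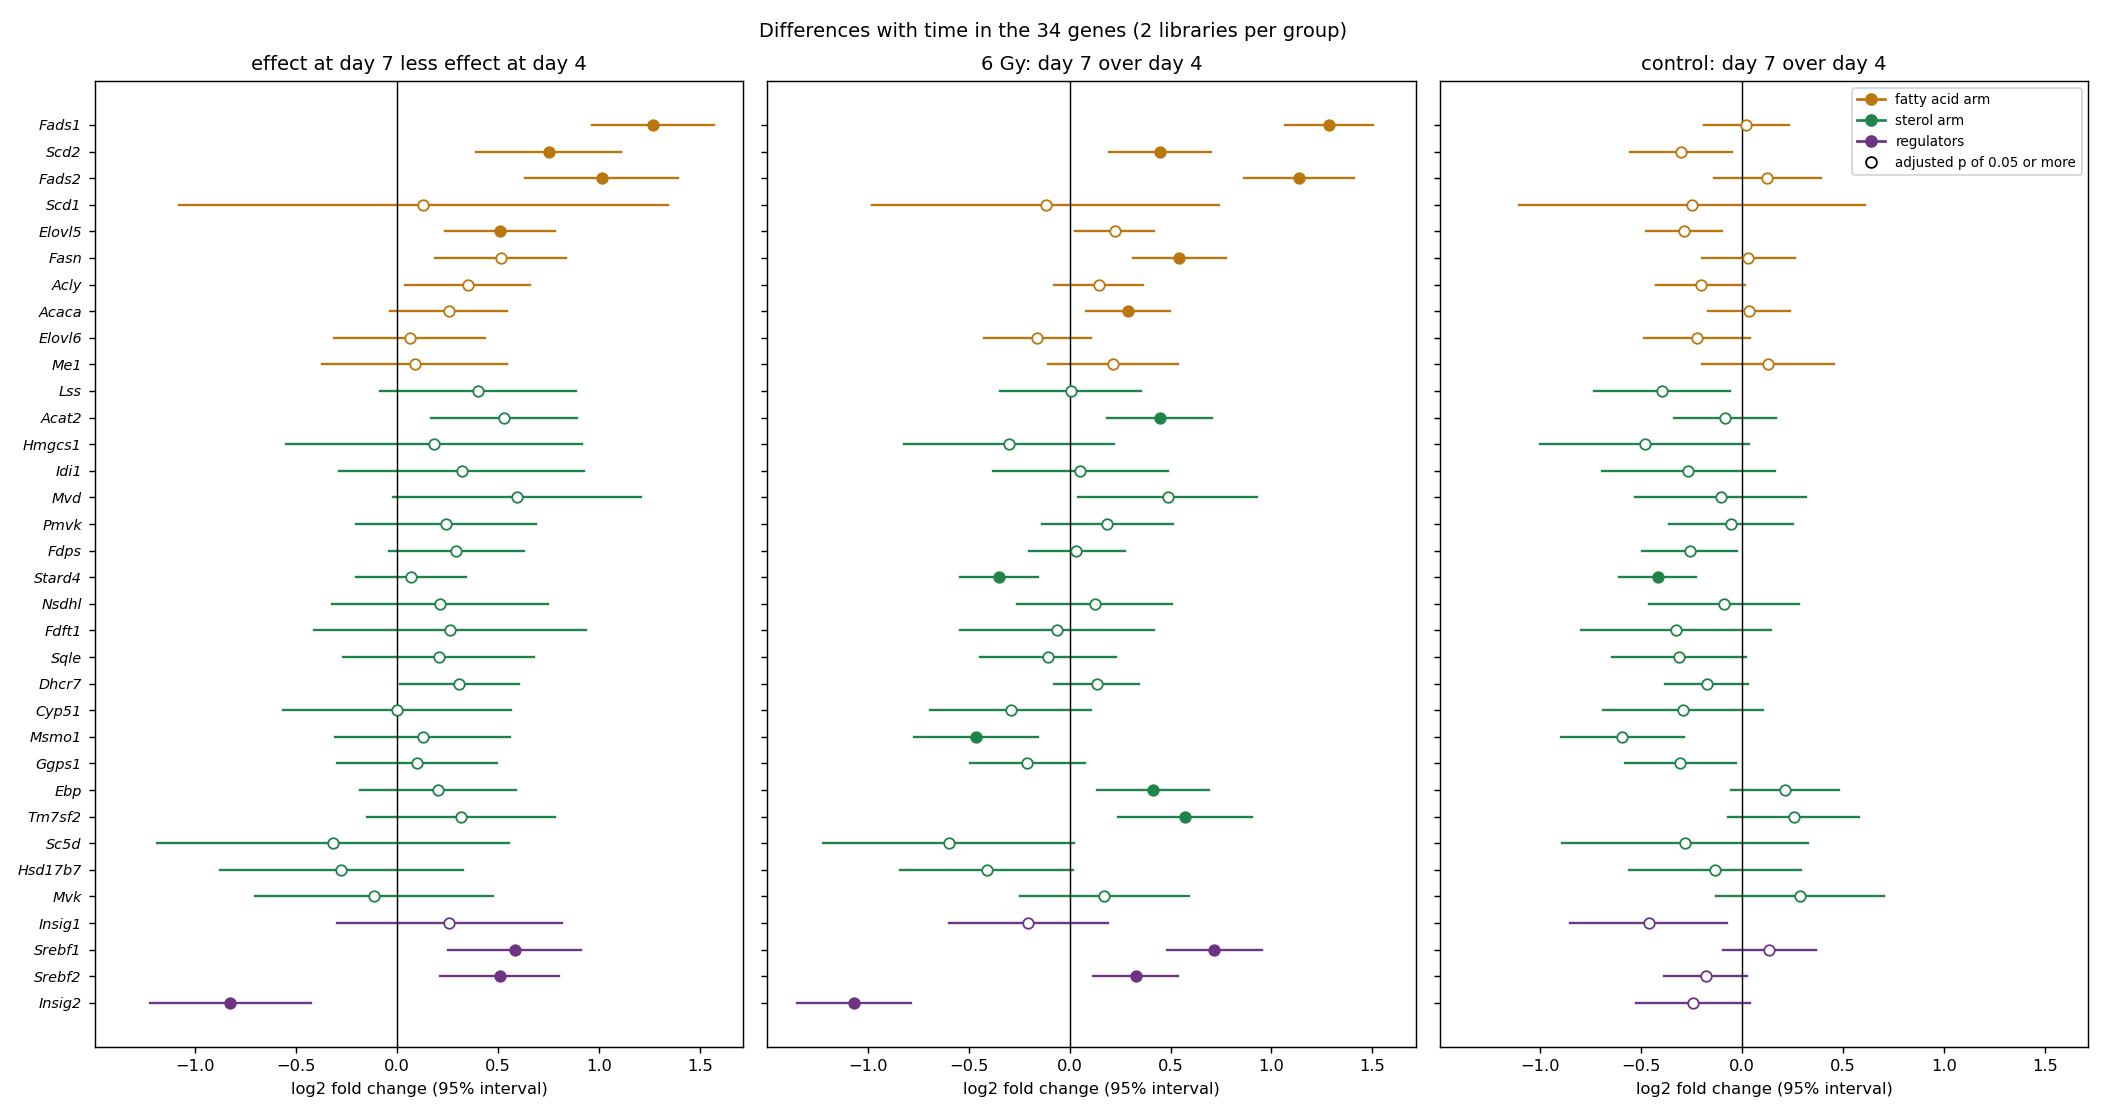
For the 34 genes, the irradiation effect at day 7 less that at day 4 (left), day 7 over day 4 in irradiated organoids (middle) and day 7 over day 4 in controls (right), as log2 values with 95% intervals, filled where the adjusted p is under 0.05. Fads1, Fads2, Scd2, Elovl5, Srebf1 and Srebf2 are filled above 0 and Insig2 below 0 in the left panel, and in controls only Stard4 is filled.

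Within irradiated organoids, 10 of the 34 genes rose at day 7 relative to day 4 and 3 fell, beside 33.0% of all tested genes called, 14.7% higher and 18.3% lower. Fads1 averaged 252 ± 9.26 CPM at day 7 and 103 ± 13.7 CPM at day 4 (SD, n = 2 each), a log2 fold change of 1.29 ± 0.10 (edgeR adjusted p = 3.5e-05). Fads2 averaged 343 ± 6.21 CPM at day 7 and 156 ± 20.5 CPM at day 4, a log2 fold change of 1.14 ± 0.12 (adjusted p = 0.000261). Fasn, Scd2 and Acaca rose with 0.54, 0.45 and 0.29. Srebf1 rose with 0.72 (adjusted p = 0.000975) and Srebf2 with 0.33 (adjusted p = 0.0237), and Insig2 fell with -1.07 (adjusted p = 0.000361). In the sterol arm, Tm7sf2, Acat2 and Ebp rose with 0.57, 0.45 and 0.42, and Msmo1 and Stard4 fell with -0.47 and -0.35. The medians were 0.26 in the fatty acid arm and 0.02 in the sterol arm, beside -0.04 for all genes, and the sterol median changed sign without irradiated replicate 1 at day 4 (-0.05) and with genes of at least 5 CPM in 2 libraries (-0.02). The calls of Fasn, Fads1, Fads2, Srebf1 and Insig2 held in all fits that left out a library, and on log2(TPM + 1) those of Insig2, Msmo1 and Stard4 were lost. The count of the 34 called was 6 without irradiated replicate 1 at day 7 and 5 without replicate 2. Scd1, with a log2 fold change of -0.12, had 0.53 without irradiated replicate 2 at day 4, a fit that left 1 irradiated library at that day.

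In control organoids, Stard4 was the only one of the 34 genes called between the days, beside 2.72% of all tested genes, 1.25% higher and 1.46% lower. It averaged 225 ± 2.62 CPM at day 7 and 300.2 ± 0.25 CPM at day 4 (SD, n = 2 each), a log2 fold change of -0.42 ± 0.09 (edgeR adjusted p = 0.0339). This call was lost without either control library at day 4 and without any library of day 7. Msmo1, the methylsterol oxidase, had -0.59 ± 0.14 with an adjusted p of 0.0535. The medians were -0.26 in the sterol arm and -0.09 in the fatty acid arm; without control replicate 1 at day 4 they were 0.04 and 0.01. The sign of both medians thus rested on 1 library. Without control replicate 2 at day 4, 7 of the 34 genes were called, and without irradiated replicate 1 or 2 at day 4 it was 4.

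The arms were also set beside each other as sums. The fatty acid genes summed to 3427 ± 9.90 CPM in irradiated and 4640 ± 107 CPM in control organoids at day 7, and to 2586 ± 297 CPM in irradiated and 5305 ± 368 CPM in control organoids at day 4 (SD, n = 2 each). The sterol genes summed to 2254 ± 2.12 CPM in irradiated and 2807 ± 19.8 CPM in control organoids at day 7, and to 2454 ± 220 CPM in irradiated and 3499 ± 866 CPM in control organoids at day 4. In TPM, the fatty acid sum over the sterol sum was 0.799 and 0.795 in irradiated and 0.847 and 0.864 in control organoids at day 7. At day 4 it was 0.539 and 0.549 in irradiated organoids and 0.722 and 0.915 in controls. The irradiated libraries at day 4 thus had the lowest ratios of the 8, with no test made. Scd2 alone made up 32.5% to 44.1% of the fatty acid sum. Without Scd1 and Scd2 the ratio was 0.437 and 0.448 in irradiated and 0.402 and 0.402 in control organoids at day 7, and 0.301 and 0.242 in irradiated and 0.308 and 0.389 in control organoids at day 4, where the irradiated libraries were still the lowest, by a margin of less than the gap between the controls. In CPM this order broke: without Scd1 and Scd2 the day 4 ratios were 0.514 and 0.409 in irradiated organoids and 0.488 and 0.622 in controls.

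**Figure D4:**
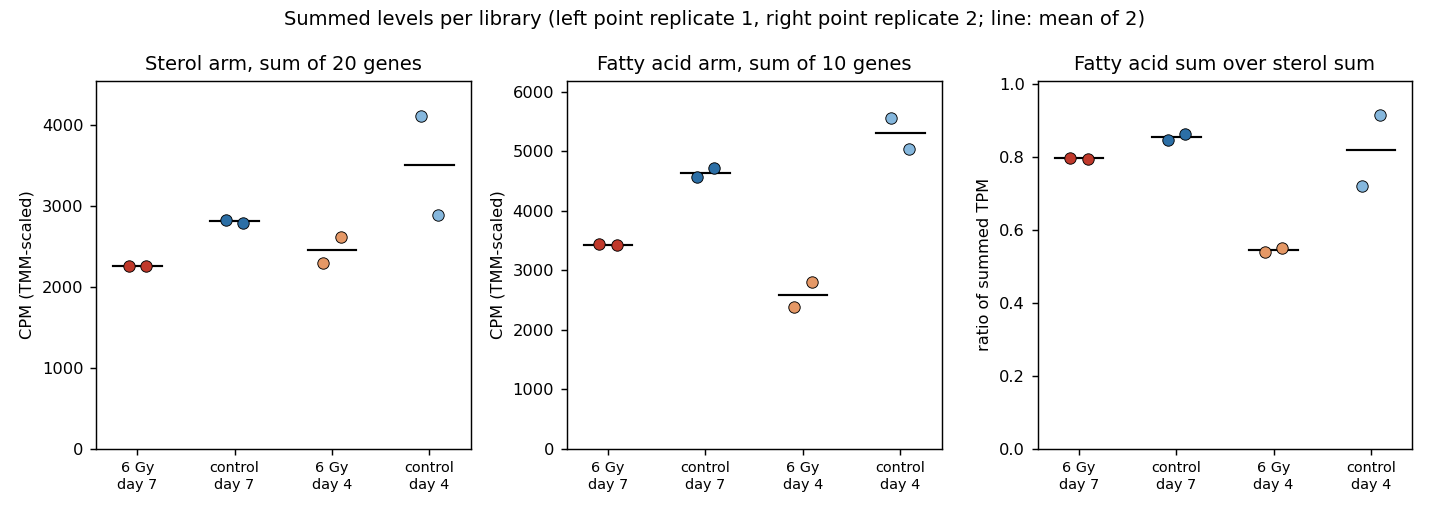
Summed level of the 20 sterol genes (left) and of the 10 fatty acid genes (middle) in CPM, and the ratio of the fatty acid sum to the sterol sum in TPM (right), for each library (left point replicate 1, right point replicate 2, line the mean of 2; all y axes start at 0). The ratio is lowest in the 2 irradiated libraries at day 4, at 0.539 and 0.549, and control replicate 1 at day 4 has the highest sterol sum.

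Other genes of the pathway were counted in 6 further lists at day 4, where 20.0% of all tested genes were called higher and 16.5% lower. Of 14 genes that process or retain SREBP, 3 were higher and 1 lower in irradiated organoids, with a median log2 fold change of 0.11. Among them Sec23a and Sec24d, parts of the coat of vesicles that leave the endoplasmic reticulum, rose with 1.06 and 0.84 (edgeR adjusted p = 0.000446 and 0.000603), and Rnf145, a ubiquitin ligase that responds to sterols, fell with -0.76 (adjusted p = 0.000612). Of 13 tested genes (19 listed) for other steps of fatty acid synthesis, 0 rose and 5 fell, with a median of -0.17. Tecr, which completes each round of elongation of very long chains, was measured at 102 and 97.1 CPM in irradiated organoids and at 136 and 145 CPM in controls (log2 fold change -0.50, adjusted p = 0.000966). Pecr, a peroxisomal enoyl-CoA reductase, fell with -1.03 (adjusted p = 0.00112). Of 11 genes of the isoprenoid branch, 1 rose (Zmpste24, 0.48) and 1 fell (Pdss1, of the side chain of coenzyme Q, -0.98, adjusted p = 4.4e-05), with a median of -0.06.

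Called genes of LXR and efflux, of sterol storage and transport and of glycerolipid synthesis ran mostly the other way at day 4. Of all tested genes, the same 20.0% were called higher and 16.5% lower. Of 8 LXR and efflux genes, 5 rose and 0 fell, and the median log2 fold change was 0.90. Abcg5 and Abcg8 form the pump that returns sterols to the gut lumen. Abcg5 was measured at 167 and 219 CPM in irradiated organoids and at 60.2 and 38.5 CPM in controls (log2 fold change 1.98, edgeR adjusted p = 0.000743). Abcg8 was measured at 153 and 184 CPM in irradiated organoids and at 72.0 and 61.2 CPM in controls (log2 fold change 1.34, adjusted p = 1.77e-05). Of 12 genes of sterol storage and transport, 7 rose and 2 fell (Npc2, -0.58, and Soat1, -0.23), with a median of 0.57. Gramd1b, which moves cholesterol from the plasma membrane to the endoplasmic reticulum, was measured at 62.4 and 69.9 CPM in irradiated organoids and at 8.01 and 7.86 CPM in controls (log2 fold change 3.06, adjusted p = 4.26e-07). Lipa, the lysosomal acid lipase, rose with 2.57 (adjusted p = 7.05e-05). Of 11 genes of glycerolipid synthesis, 9 rose and 2 fell, with a median of 0.75. Lpin3 rose with 1.72 and Dgat2, which completes triglyceride, with 1.42, while Gpam, the acyltransferase of the first step, fell with -1.10 and Lpin1 with -0.62. Of the 17 genes named from these lists at day 4, 15 kept their calls in every fit that left out a library. Soat1 and Zmpste24 lost theirs without any library of day 7 or without control replicate 2 at day 4, and Zmpste24 also without irradiated replicate 1 at day 4. On log2(TPM + 1) the calls of Sec24d (0.31, adjusted p = 0.193), Lpin1 (-0.58, adjusted p = 0.0539), Soat1 (-0.41, adjusted p = 0.0874) and Zmpste24 (0.28, adjusted p = 0.394) were lost. The enterocyte markers rose in the same libraries, and their part in these rises was not tested.

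At day 7, called genes of these lists were fewer, beside 4.70% of all tested genes called higher and 3.95% lower. In irradiated organoids Tmem147 of the SREBP processing genes rose (0.50), 0 of 8 LXR and efflux genes were called (1 at an unadjusted p under 0.05 in edgeR, and 0 called by DESeq2), 1 of 12 storage and transport genes rose (Gramd1b, 1.05, edgeR adjusted p = 0.00376), and 1 of 11 isoprenoid genes fell (Pdss1, -0.34). Tecr rose with 0.29 (adjusted p = 0.0465), at 166 and 175 CPM in irradiated organoids and 136 and 143 CPM in controls, opposite to its fall at day 4. Glycerolipid synthesis had 5 rises and 2 falls among 11 genes, with Mogat2 at 1.38 and Dgat2 at 0.87, and with Lpin1 at -0.90 and Gpam at -0.61. Each of the genes named here for irradiation at day 7 lost its call without at least 1 library of that day: Gramd1b without control replicate 1, Dgat2 without irradiated or control replicate 2, Mogat2 without either control library or irradiated replicate 2, and the other genes without any of the 4.

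Between the days, Erlin1 of the SREBP processing list fell in controls with -0.60, Npc1l1, the sterol uptake protein of the brush border, with -0.81 in controls and -1.06 in irradiated organoids, and Gramd1a rose in controls with 1.03 and Plin2, a coat protein of lipid droplets, with 0.50. All 4 calls in controls were lost without either control library of day 7, those of Gramd1a, Npc1l1 and Plin2 also without control replicate 2 at day 4 or either irradiated library of day 7, and that of Plin2 without control replicate 1 at day 4. Within irradiated organoids, calls at day 7 relative to day 4 stood beside 14.7% of all tested genes called higher and 18.3% lower. Of 11 glycerolipid genes 0 rose and 7 fell, and of 8 LXR and efflux genes 0 rose and 3 fell. The 12 storage and transport genes had 2 rises and 5 falls, and the 14 SREBP processing genes 1 and 4. The 11 isoprenoid genes had 3 rises and 0 falls, and the 13 other genes of fatty acid synthesis 4 and 0. Sec24d, Sec23a, Abcg8, Gramd1b, Lpin3 and Dgat2 were among the falls. Acss2, which makes acetyl-CoA from acetate, rose with 0.45, Soat1 with 0.31, Npc2 with 0.27 and Fntb, a farnesyltransferase subunit, with 0.72. Abca1 fell with -3.45. The calls of Npc2 (without either irradiated library of day 7) and Soat1 (without irradiated replicate 1 at day 7) were lost, and those of the other genes named here held.

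**Figure D5:**
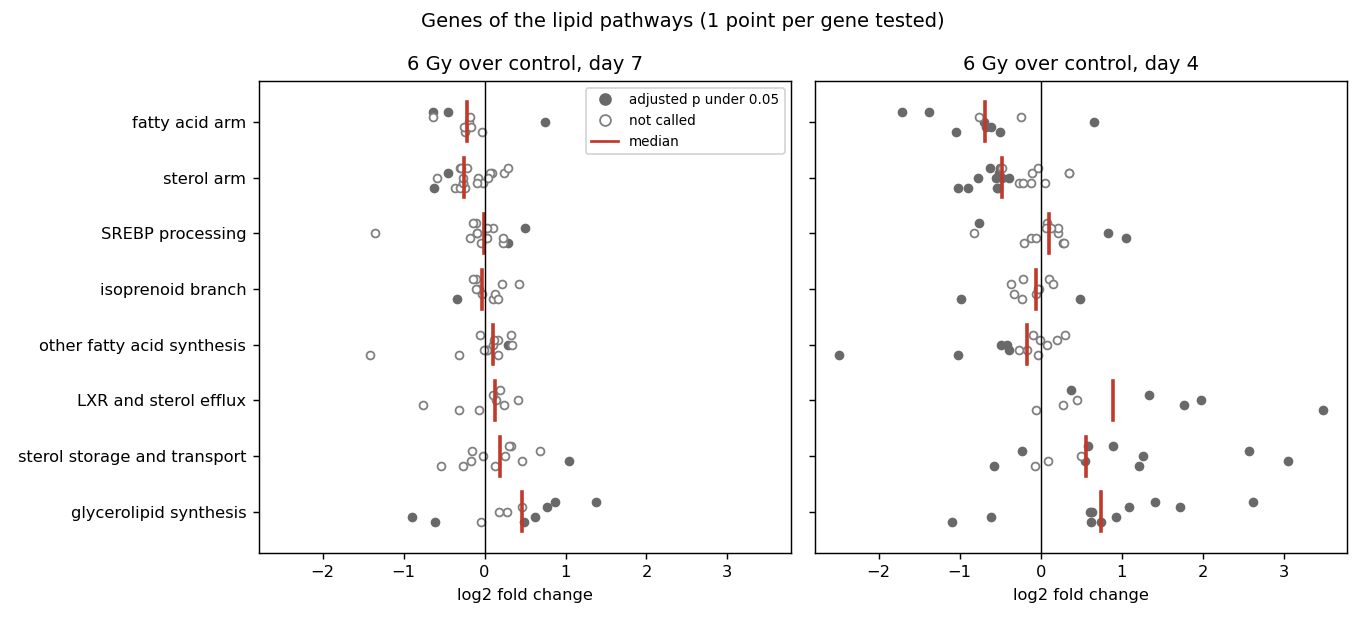
Log2 fold change of irradiated over control organoids for each tested gene of the arms and of 6 further lists (x axis; left panel day 7, right panel day 4; filled points have an adjusted p under 0.05, the red bar is the median of the list). At day 4 the medians are -0.69 in the fatty acid arm and -0.48 in the sterol arm, and 0.75 in glycerolipid synthesis and 0.90 in LXR and sterol efflux.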

How the data were processed

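RNA of 8 organoid libraries was sequenced after poly-A selection with a directional kit, per the labels' protocols. The authors deposited RSEM expected counts per gene, not normalized, and TPM values, per the file headers. The submitters' processing notes name FastQC, Trim Galore, STAR 2.7.3a, RSEM 1.3.3 and the builds GRCm39 and mm10, without roles. Neither annotation nor strand setting is given in the sources used here. No column was left unmapped to a sample.

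Rounding the deposited expected counts to whole numbers altered 11.45% of values. Genes were filtered with edgeR 4.0.16 (filterByExpr, minimum count 10, minimum total 15), scaled by TMM and tested with quasi-likelihood F-tests over 4 group means (8 libraries, 4 residual degrees of freedom, R 4.3.3). Calls are at a Benjamini-Hochberg adjusted p under 0.05 over all 14063 genes. Standard errors were taken as the log2 fold change divided by the square root of F, and intervals are 95%. CPM are TMM-scaled. A "not overlapping" gene has both libraries of one group above both of the other. Library totals limit low values: intervals and p-values cover the spread of 2 libraries per group only.

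Alternatives were DESeq2 1.42.0 size factors and its test, limma 3.58.1 (voom, and log2 of deposited TPM with a pseudocount of 1 or 0.1, for genes of at least 1 TPM), no filter, at least 5 CPM in 2 libraries, only the groups compared, a replicate block, no mitochondrial genes, and each library left out. A fit without 1 library leaves 1 in its group, so the spread between the replicates of that group does not enter the test, and calls can be gained as well as lost.

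The members, the lists and the tests were chosen with earlier results of these data known. Per-library values are given for the 3 genes of each arm with the smallest adjusted p for irradiation, for the 4 regulators and for genes that ran against most of their arm, with Hmgcs1 and others added after their values were seen. From each further list, at most 2 called genes per direction and comparison are named, by smallest adjusted p.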

Additional observations from a re-analysis of the deposited data

Results flagged for a closer look

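The irradiation effect differed between day 7 and day 4 (log2 effect at day 7 less that at day 4, tested as an interaction term with edgeR) for 7 of the 34 genes. The differences were 1.27 for Fads1, 1.01 for Fads2, 0.75 for Scd2, 0.51 for Elovl5, 0.58 for Srebf1, 0.51 for Srebf2 and -0.83 for Insig2. Of all tested genes, 10.1% were called, 4.60% with a positive and 5.51% with a negative difference.

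The same test called genes of the further lists, beside 4.60% of all tested genes positive and 5.51% negative. Of 14 SREBP processing genes 1 was positive and 2 negative, and of 8 LXR and efflux genes 0 and 3. Of 12 storage and transport genes 0 were positive and 4 negative, and of 11 isoprenoid genes 2 and 0. The 13 other genes of fatty acid synthesis had 1 and 0, and the 11 glycerolipid genes 0 and 3. In SREBP processing the differences were -0.83 for Sec23a, -0.93 for Sec24d and 0.62 for Rnf145. Among efflux, storage and transport genes they were -3.80 for Abca1, -1.84 for Abcg5, -1.23 for Abcg8, -1.89 for Lipa, -1.08 for Gramd1a and -2.01 for Gramd1b. The isoprenoid genes Pdss1 and Fntb had 0.64 and 0.80, and the elongation enzyme Tecr had 0.79. In glycerolipid synthesis Lpin3 had -1.26, Mogat2 -1.25 and Plin2 -0.79. The calls of Fads1, Abcg8, Gramd1b, Lpin3 and Tecr held in every fit without 1 library. Enterocyte, Paneth and mitosis markers also differed between the days in this test (6 of 10 and 4 of 4 negative, 9 of 12 positive), and their part in these differences was not tested.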

How the results depend on the processing

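Of 3026 results for single genes of the 34 under alternatives, 162 lost their call, 130 gained one and 1 reversed, with 91 more changing sign while not called either way. The reversal was Scd1 at day 7 over day 4 in irradiated organoids, -0.12 with all libraries, 0.53 without irradiated replicate 2 at day 4 and -0.55 without replicate 1. Plin2 in that comparison reversed to 0.042 with either TPM setting. Of the called genes of the 34, 16 of 23 at day 4, 0 of 5 at day 7, 1 of 7 for the difference between days, 5 of 13 for irradiated organoids over time and 0 of 1 for controls over time held in every fit without 1 library; the other alternatives left 13, 0, 1, 4 and 0.

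Leaving out 1 library gave these ranges. For irradiation at day 4, 3842 to 5101 genes (5130 with all libraries), 18 to 27 of the 34, medians -0.58 to -0.21 (sterol) and -0.76 to -0.63 (fatty acid). At day 7, 105 to 2341 genes (1216 with all), 0 to 10 of the 34, medians -0.26 to -0.18 (sterol) and -0.26 to -0.17 (fatty acid). For the difference between days, 244 to 2718 genes (1422 with all), 1 to 11 of the 34, medians 0.015 to 0.40 and 0.39 to 0.53. For controls over time, 17 to 1234 genes (382 with all), 0 to 7 of the 34, medians -0.40 to 0.042 and -0.14 to 0.01. For irradiated organoids over time, 2094 to 5252 genes (4639 with all), 5 to 18 of the 34, medians -0.054 to 0.088 and 0.26 to 0.44. The cause of these shifts was not tested.

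With only the groups compared, day 4 gave 3228 genes and 15 of the 34, day 7 gave 4732 and 23, controls over time 620 genes, and the sterol median of irradiated organoids over time was 0.044. Without a filter, day 7 gave 2044 genes and medians of -0.20 (sterol) and -0.16 (fatty acid), the difference between days 2456 genes, 13 of the 34 and a fatty acid median of 0.53, controls over time 1217 genes and 9 of the 34, and irradiated organoids over time medians of 0.10 and 0.33. With at least 5 CPM in 2 libraries the last sterol median was -0.023, and the DESeq2 test called 2 of the 34 in controls over time. At day 7 DESeq2 gave 1364 genes no adjusted p.

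On log2(TPM + 1) and log2(TPM + 0.1), day 4 gave 2836 and 2783 genes and fatty acid medians of -0.88 and -0.89. Day 7 gave 387 and 389 genes, 0 of the 34 in both, and medians of -0.11 and -0.12 (sterol) and -0.065 in both (fatty acid). The difference between days gave 308 and 338 genes, 3 of the 34 in both, and medians of 0.53 and 0.54 (sterol) and 0.77 and 0.78 (fatty acid). Controls over time gave 58 and 55 genes and 0 of the 34 in both, and irradiated organoids over time medians of 0.40 and 0.41 (sterol) and 0.60 and 0.63 (fatty acid). TPM shifted the median of all genes by -0.17 at day 4, 0.12 at day 7, 0.26 for the difference between days, 0.04 in controls and 0.30 in irradiated organoids over time. The calls at day 4 split into 1104 higher and 1732 lower genes on log2(TPM + 1) and 2808 and 2322 on counts, at day 7 into 316 and 71 against 661 and 555 (1374 and 670 without a filter), and in irradiated organoids over time into 3355 and 760 against 2071 and 2568. In CPM in place of TPM the fatty acid over sterol ratio was 1.52 in irradiated and 1.65 in control organoids at day 7, and 1.05 in irradiated and 1.55 in control organoids at day 4.

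The labels give no shared litter, batch or day for same-numbered libraries, and their deviations correlated at -0.0279 to 0.126, so the numbers were not taken to pair them. With the replicate number as a block, 20 of the 34 were called at day 4 (5153 genes), 4 at day 7 (1245), 7 for the difference between days (1443), 1 in controls over time (473) and 13 in irradiated organoids over time (4643). The block ended the calls of Mvd (adjusted p = 0.0767), Nsdhl (0.0568) and Insig1 (0.0548) at day 4 and of Lss (0.0544) at day 7. Depth of 7541764 expected counts in the shallowest library limits low genes, and 2 libraries a group limit every interval.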
